A study of Mus musculus with 6 samples.

Results

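In wild-type (WT) mouse adrenal glands, the RNA polymerase II found at the 3′ ends of genes was compared with that found along their gene bodies. Chromatin was immunoprecipitated with an antibody raised against the N-terminal part of RPB1, the largest polymerase subunit, and the recovered DNA was sequenced (ChIP-seq). The whole series held 6 libraries, and the 3 WT libraries were used here. The other 3 came from Armc5 knockout animals and entered no value below. All WT animals were females of the strain 129 sv X CD1, aged 10 to 14 months, and were untreated as far as the labels say. Glands were homogenised whole, so cortex, medulla, capsule, vessels and blood cells contributed to each library. Every library carried its own mouse number and was taken as 1 animal (n = 3).

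For each library the deposited tables gave 1 read count per gene over the transcription end site (TES) and 1 over the gene body. Both tables listed the same 12718 genes, of which 12717 were analysed after Gm10800 was dropped. Counts were divided by the table total of their library and are given as CPM, a share of that total scaled to the same sum in every library. The TES to gene body ratio is the quotient of these CPM values, on a log2 scale after 0.5 was added to each count. A log2 ratio of 0 means that a gene held the same share of all TES counts as of all gene body counts. The sources used here do not give the width of the TES window or the gene models, and neighbouring windows may share reads.

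RNA polymerase II does not stop at the poly(A) site. It transcribes the cleavage signal, slows and pauses downstream of it while the cleavage and polyadenylation complex cuts the transcript, and is released as an exonuclease degrades the RNA still being made. ChIP-seq signal at a 3′ end therefore holds polymerase that is ending a transcript, and in a dense genome it can also hold polymerase at the start of the next gene.

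TES totals were 1626006, 890842 and 2259468 counts in WT replicates 1, 2 and 3, and gene body totals were 18381143, 12085069 and 21200368. There were 8.85, 7.37 and 10.7 TES counts per 100 gene body counts. The median gene had 80, 49 and 110 TES counts and 748, 503 and 960 gene body counts, so WT replicate 2 was the least precise. Gm10800 had taken 4.41%, 7.01% and 1.52% of TES counts before it was dropped. A set of 3 other predicted genes, Gm10801, Gm10718 and Gm10722, took 2.03%, 4.65% and 0.64% of the remaining TES counts. The log2 ratios of all genes had Spearman correlations of 0.96, 0.95 and 0.93 between libraries, a description across genes that share gene length and neighbours.

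The gene ends with the most TES signal relative to the gene body often lay just before the start of another gene. The windows that follow are the 250 bases before the start sites of 4 such downstream genes, printed because the ends of Slc35g3, Tnfsf13, Tpp1 and Slc23a3 lie next to them and carry the highest ratios with an annotated start 300 to 1300 bases away. They are from RefSeq, build GRCm38.p6, on the minus strand, 5′ to 3′. Capitals mark matches on either strand to the GC box GGGCGG, the CCAAT box CCAAT or the TATA box TATAAA, and no match overlapped another.
Polr2a, chr11:69758634-69758883: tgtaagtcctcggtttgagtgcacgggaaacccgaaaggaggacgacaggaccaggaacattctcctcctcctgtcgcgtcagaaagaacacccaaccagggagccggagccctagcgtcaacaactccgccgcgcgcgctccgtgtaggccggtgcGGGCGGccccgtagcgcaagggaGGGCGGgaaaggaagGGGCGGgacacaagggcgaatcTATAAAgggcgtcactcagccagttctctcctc
Senp3, chr11:69682085-69682334: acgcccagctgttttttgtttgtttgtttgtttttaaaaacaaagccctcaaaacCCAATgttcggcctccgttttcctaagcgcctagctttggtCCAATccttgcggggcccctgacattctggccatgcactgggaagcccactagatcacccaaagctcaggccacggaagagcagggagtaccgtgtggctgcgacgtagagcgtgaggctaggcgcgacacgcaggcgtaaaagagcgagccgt
Taf10, chr7:105744339-105744588: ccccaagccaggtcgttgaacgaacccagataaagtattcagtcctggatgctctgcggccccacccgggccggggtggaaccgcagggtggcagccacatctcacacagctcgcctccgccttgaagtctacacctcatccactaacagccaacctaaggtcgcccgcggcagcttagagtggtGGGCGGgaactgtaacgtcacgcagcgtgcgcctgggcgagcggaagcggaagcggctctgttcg
Nhej1, chr1:75125227-75125476: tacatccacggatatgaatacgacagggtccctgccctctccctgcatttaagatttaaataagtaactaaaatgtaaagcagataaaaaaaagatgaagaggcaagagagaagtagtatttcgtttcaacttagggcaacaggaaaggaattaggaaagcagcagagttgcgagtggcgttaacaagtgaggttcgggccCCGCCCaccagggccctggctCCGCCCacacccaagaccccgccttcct
The window before Polr2a held 3 GC boxes and 1 TATA box, with 23 CpG dinucleotides and a GC content of 62.8%. The window before Senp3 held 2 CCAAT boxes, that before Taf10 held 1 GC box and that before Nhej1 held 2 GC boxes. Of 32851 RefSeq promoters cut to the same length, 32.7% held a GC box, 33.8% a CCAAT box and 12.4% a TATA box, with a median of 6 CpG dinucleotides. These matches describe the letters of the windows and are not binding sites.

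TES signal was spread over many genes. The 100 genes with most TES counts in each library held 9.98%, 10.3% and 7.73% of them, and 50% of TES counts took 2024, 2642 and 1961 genes. A total of 61 genes ranked among the top 100 by TES CPM in all 3 libraries, 5 of them predicted genes that are counted but not named. The named genes with the highest TES CPM in their lowest library are described by role.

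Adrenal cortex genes were among the most heavily occupied 3′ ends. Star carries cholesterol into mitochondria for steroid synthesis. Its TES CPM was 2133, 795 and 895 in WT replicates 1, 2 and 3, against a gene body CPM of 884, 347 and 560. Fdx1 encodes the ferredoxin that passes electrons to mitochondrial steroidogenic enzymes. Its TES CPM was 2067, 826 and 825, and its gene body CPM was 1240, 408 and 647. For both genes WT replicate 1 stood far above the other two, at the TES and in the gene body alike. Alas1, the first enzyme of haem synthesis, had a TES CPM of 1188, 667 and 887. The summed TES CPM of 16 steroidogenesis genes was 11764, 5729 and 5770, with the highest sum in WT replicate 1. In these tissue libraries more cells of a type and more polymerase per cell cannot be told apart.

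Cytoskeletal and clock genes followed. Actb and Actg1 encode the cytoplasmic actins. Their TES CPM was 907, 1052 and 1183 for Actb and 783, 764 and 811 for Actg1, the tightest spread of the 11 genes described here. Per1, a circadian repressor induced by glucocorticoids, had 1082, 704 and 919. Prdx2, a peroxiredoxin that removes hydrogen peroxide, had 1628, 1134 and 880, against a gene body CPM of only 77.7, 41.0 and 52.8. Its log2 ratios were 4.39, 4.79 and 4.06. WT replicate 2 was the lowest of the libraries for Per1, Actg1 and Alas1, and WT replicate 3 for Prdx2.

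Like Prdx2, the remaining 4 of the 11 combined high TES signal with a weak gene body or a close neighbour. Slc35g3, a gene of the nucleotide-sugar transporter family, had the most: TES CPM 1902, 1625 and 2294, with a gene body CPM of only 1.25, 3.14 and 1.93. Its gene body held 23, 38 and 41 reads, so its TES signal had no counterpart in its own gene body. Senp3, a SUMO protease, had a TES CPM of 948, 730 and 1021 and a gene body CPM of 35.6, 30.5 and 49.6. Its end lies 687 bp before the start of Eif4a1, a translation initiation helicase. Tex2 had a TES CPM of 871, 782 and 1054 over a gene of 111 kb, and Pigu, a subunit of the GPI transamidase, had 1095, 836 and 701 over 79.2 kb. The RefSeq span of Map1lc3a, an autophagy gene, lies 170 bp from the end of Pigu.

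**Figure D1:**
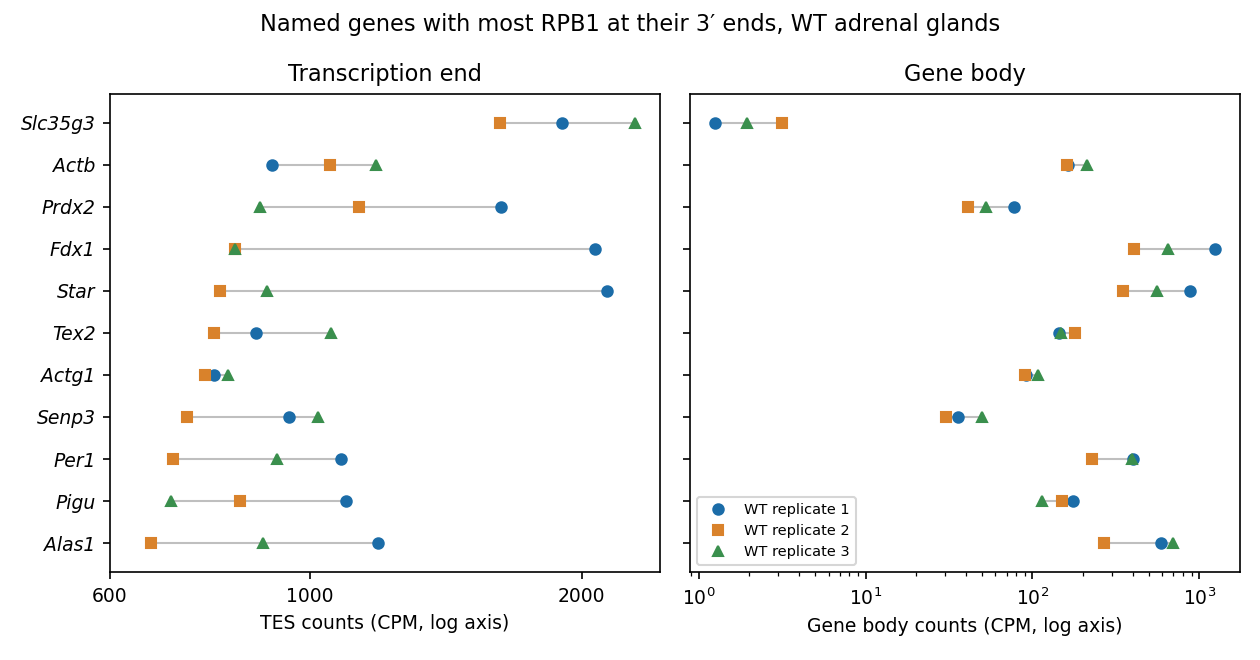
TES CPM (left, log axis) and gene body CPM (right, log axis) of the 11 named genes with the highest TES CPM in their lowest WT library; each symbol is 1 library and grey lines span the 3 libraries. Star and Fdx1 stand apart in WT replicate 1 in both panels, and Slc35g3 has a gene body CPM between 1.25 and 3.14 beside a TES CPM of 1625 to 2294.

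The ratio followed gene length. Gene body counts grow with the length counted, and across 12520 genes with a RefSeq length the log2 ratio had Spearman correlations of -0.84, -0.89 and -0.79 with length in the 3 libraries. The median log2 ratio was 2.38 ± 0.31 (SD, n = 3) for 1574 genes under 5 kb and 1.19 ± 0.22 (SD, n = 3) for 4165 genes of 5 to 20 kb. It was 0.03 ± 0.18 (SD, n = 3) for 3387 genes of 20 to 50 kb, -0.92 ± 0.06 (SD, n = 3) for 1788 genes of 50 to 100 kb and -2.25 ± 0.05 (SD, n = 3) for 1606 longer genes. Each step was larger than the spread between the animals. TES CPM itself changed less, with medians of 59.0, 64.0 and 61.5 under 5 kb and 35.7, 42.7 and 34.5 over 100 kb.

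A second measure divides gene body counts by the length of the gene. The equivalent length is the stretch of a gene's own body that holds as many reads as its TES window, from raw counts and the RefSeq span. Its median over all genes was 2.56, 2.36 and 2.73 kb, and over the 110 genes longer than 500 kb it was 2.59, 2.47 and 3.49 kb. It still varied with length, with medians of 1.33, 1.44 and 1.29 kb for genes under 5 kb and 3.28, 2.78 and 3.70 kb for genes of 50 to 100 kb. Counts at the TES ranked with gene body counts per kb (Spearman 0.66, 0.60 and 0.67 across genes) more closely than with gene body counts (0.27, 0.07 and 0.35).

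**Figure D2:**
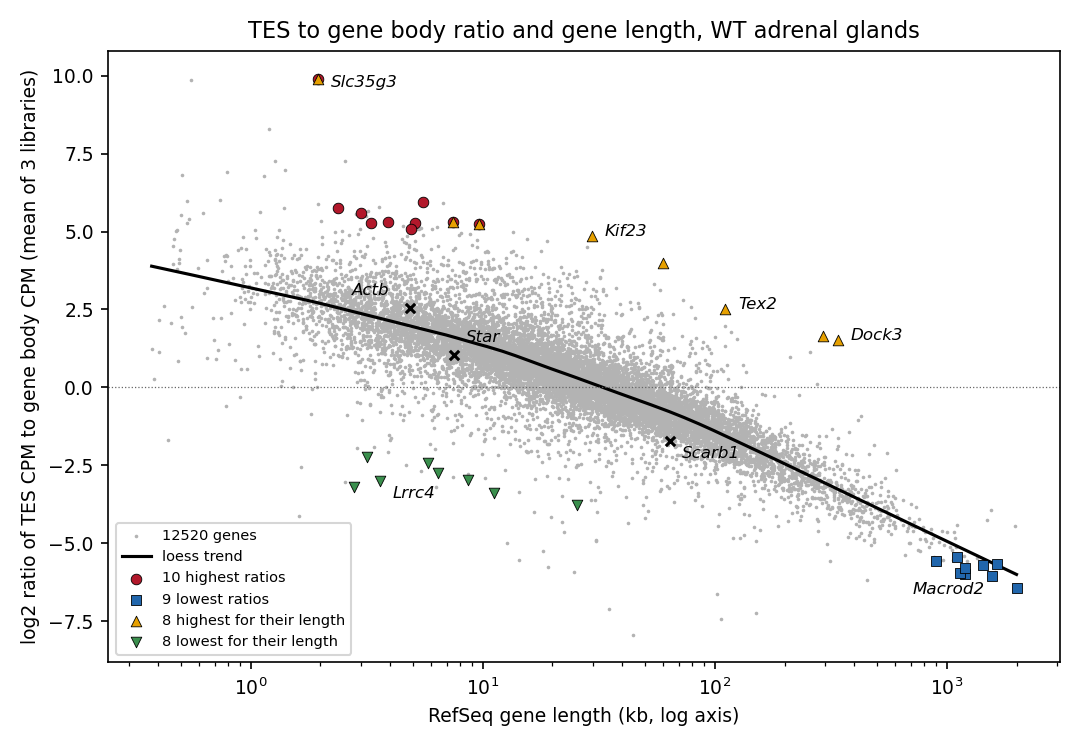
Log2 ratio of TES CPM to gene body CPM (mean of 3 WT libraries) against RefSeq gene length (kb, log axis) for 12520 genes, with the loess trend as a line. Coloured symbols are the named genes at the extremes, crosses are Actb, Star and Scarb1; the ratio falls with length, and Slc35g3 and Macrod2 mark the top and the bottom of the named genes.

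With edgeR's quasi-likelihood test and each library as its own block, 9733 of 12714 tested genes (76.6%) had a ratio different from 1 at a Benjamini-Hochberg adjusted p under 0.05. Of all tested genes 5782 (45.5%) were higher at the TES and 3951 (31.1%) lower, and the median fitted log2 ratio was 0.32. When both tables were scaled together by TMM, the median fell by 0.36 to -0.04, with 4835 genes higher and 5110 lower, so a direction is relative to the table totals. The ratio was above 1 in all 3 libraries for 6386 genes, below 1 in all 3 for 4393, and on both sides for 1938.

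The same test was run against the ratio of genes of like length, with the loess trend as offset. In it 4573 of 12517 genes (36.5%) were called, 2434 higher (19.4%) and 2139 lower (17.1%). Without WT replicate 1 the number was 2700, and it was 4951 and 4432 without WT replicates 2 and 3. Calls against length named below that WT replicate 1 decides are given with their value without it. The trend was estimated from these same libraries, and a RefSeq span that differs from the authors' gene model would shift a gene's value.

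The highest and lowest ratios were ranked among 6359 genes whose mean log2 CPM over both tables was at or above the median. In all 3 libraries 65 genes ranked among the top 100 and 52 among the lowest 100. The 65 genes were short, with a median length of 5.21 kb (0.468 to 29.5 kb), and the 52 were long, with a median of 875 kb (151 to 1998 kb). The median over all genes was 22.9 kb. Of the top 65 by ratio and the top 61 by TES CPM, 14 genes were shared, 21.5% of the first and 23.0% of the second. The members were chosen by their ratio, so their values are descriptions and no test is given for them as a group.

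Slc35g3 had the highest ratio of the named genes, with log2 ratios of 10.54, 8.995 and 10.19. The fitted value was 9.91 ± 0.35 (SE), 962-fold. The gene is 1.96 kb long, lies at chromosome 11, 69759884 to 69761844, and is transcribed from the minus strand. Its end lies 1251 bp before the start of Polr2a on the same strand, the gene of RPB1 itself and the first promoter printed above. Polr2a had the opposite pattern, with a TES CPM of 111, 90.9 and 75.7 and a gene body CPM of 273, 220 and 959. Its log2 ratio was -1.30, -1.27 and -3.66, and WT replicate 3 stood apart through its gene body count. The fitted log2 ratio of Polr2a was -2.10 ± 0.37 (SE), with an edgeR adjusted p of 0.00015.

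The 9 named genes after Slc35g3 had log2 ratios from 4.97 to 6.59 in single libraries. Tmub1, a ubiquitin-like membrane protein, had 5.70, 5.44 and 6.17, and its end lies 228 bp before the start of Fastk. Tnfsf13, the cytokine APRIL, had 5.69, 5.40 and 5.69, and its end lies 493 bp before Senp3. Tnfsf13, Senp3 and Eif4a1 thus follow each other on chromosome 11, and the first 2 of them had a ratio among the top 100 in every library.

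Lysosomal, transporter and nuclear envelope genes were also among them. Tpp1, a lysosomal peptidase, had a TES CPM of 604, 521 and 707 and a gene body CPM of 14.7, 13.7 and 17.8. Its log2 ratios of 5.36, 5.24 and 5.31 differed little between animals, and its end lies 473 bp before Taf10, a subunit of the general transcription machinery. Slc23a3 was as even, at 5.21, 5.31 and 5.21, and ends 315 bp before Nhej1, a DNA repair gene. Nrm, which encodes nurim of the nuclear envelope, had 5.15, 5.22 and 5.44 and ends 195 bp before Ppp1r18.

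S100a1, a calcium-binding protein gene, had log2 ratios of 5.43, 5.12 and 5.32, with the start of Chtop 1536 bp beyond its end. Tmem253 had 5.16, 5.12 and 4.97, and its end lies 74 bp past the start of Zfp219 on the opposite strand, inside that gene. Smco3 had 6.10, 5.20 and 6.59 and Prrt2, a synaptic membrane protein gene, had 5.50, 5.34 and 5.09. Of these 4 genes, Smco3 was the one whose libraries lay furthest apart.

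**Figure D3:**
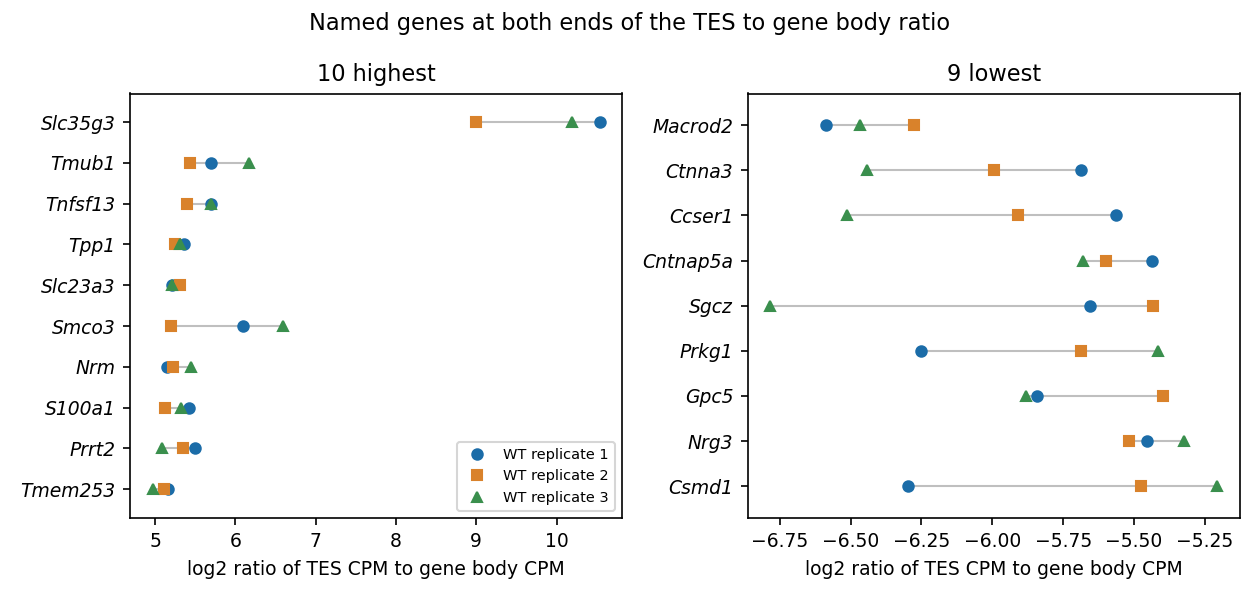
Log2 ratio of TES CPM to gene body CPM in each WT library for the 10 named genes with the highest ratios (left) and 9 with the lowest (right); symbols are libraries and grey lines span them. Slc35g3 lies between 8.995 and 10.54, the other 9 genes on the left between 4.97 and 6.59, and Macrod2 on the right between -6.59 and -6.28.

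Close neighbours were counted for all genes with a strand in the RefSeq promoter table, 10019 of 12717. Only protein-coding and long noncoding RNA genes counted as neighbours. Among the genes that passed the signal filter, 4.73% of 5073 ends had another gene's start within 1 kb and 10.0% within 2 kb. Of the 50 top-ratio genes with a strand, 26 (52.0%) had one within 1 kb and 42 (84.0%) within 2 kb. In 36 of the 42 the neighbour starts downstream on the same strand, and in 6 it is on the opposite strand. Of 46 such genes with most TES signal, 9 (19.6%) had a start within 1 kb and 23 (50.0%) within 2 kb. Of 38 lowest-ratio genes 0 had one within 1 kb and 1 (2.63%) within 2 kb. The part of the neighbours' own polymerase in these ratios was not tested, because a read count over a window does not tell which gene it belongs to.

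The same difference was seen when length was held close. Among genes of 5 to 20 kb, the 187 with a start within 1 kb of their end had a median log2 ratio of 2.32 ± 0.15 (SD, n = 3). The 516 with another gene's end within 1 kb had 1.34 ± 0.22 (SD, n = 3). The 2389 with no stranded gene's start or end within 1 kb, nor one over their end, had 1.13 ± 0.21 (SD, n = 3). The first group was higher in each library (2.23, 2.49 and 2.23 against 1.12, 1.34 and 0.91). Genes whose end lies inside another gene had 1.03 ± 0.29 (SD, n = 3), within the spread of those with none.

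**Figure D4:**
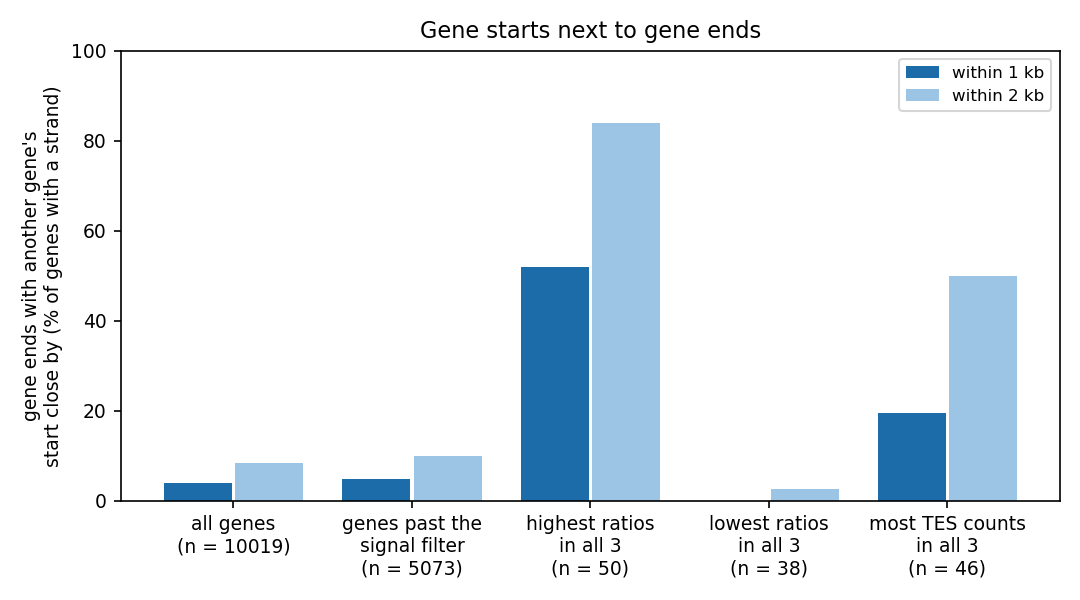
Percentage of gene ends with another gene's annotated start within 1 kb (dark bars) or 2 kb (light bars), for all genes, genes past the signal filter, and the genes ranking among the 100 highest ratios, lowest ratios or TES counts in all 3 WT libraries; n counts genes with a strand. The highest ratios reach 52.0% and 84.0%, and the lowest ratios 0 and 2.63%.

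The 9 named genes with the lowest ratios were 903 to 1998 kb long, and many are known from neural tissue. Macrod2, a hydrolase of ADP-ribose groups, had 18, 19 and 15 TES counts, a TES CPM of 11.1, 21.3 and 6.64, and a gene body CPM of 1094, 1698 and 606. Its log2 ratio was -6.59, -6.28 and -6.47, the lowest of the named genes in its highest library. Ctnna3, an alpha-catenin of cell junctions, had -5.69, -6.00 and -6.44, and Csmd1, a complement-control membrane protein, had -6.30, -5.48 and -5.21. The TES counts behind these ratios ran from 5 to 46 per library, so their precision was low. Gene body CPM per kb of the 9 genes ran from 0.23 (Sgcz, WT replicate 3) to 0.94 (Prkg1, WT replicate 2). The median over all genes was 1.74 (mean of the libraries). They thus passed the signal filter through the total over a long gene body and not through dense signal.

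The other 6 were Ccser1, Cntnap5a, Sgcz, Prkg1, Gpc5 and Nrg3. They include a neurexin-family adhesion gene (Cntnap5a), a sarcoglycan (Sgcz), the cGMP-dependent protein kinase (Prkg1), a glypican (Gpc5) and a ligand of ErbB receptors (Nrg3). Their log2 ratios in single libraries ran from -6.78 in Sgcz, WT replicate 3, to -5.32 in Nrg3, WT replicate 3. Gene body CPM of all 9 was highest in WT replicate 2 and lowest in WT replicate 3.

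Set against their own gene bodies, these 9 ends held as many reads as 1.01 kb (Sgcz, WT replicate 3) to 4.69 kb (Csmd1, WT replicate 3) of the gene. Macrod2 had an equivalent length of 1.79, 1.85 and 2.33 kb, beside 2.56, 2.36 and 2.73 kb for the median gene. How low such genes lie for their length depends on the trend that is taken off. The log2 difference of Macrod2 was -0.48 from the loess trend and -1.71 from a straight line of length, and that of Ctnna3 was -0.40 and -1.54. No test is given for them, because the same ratios chose them.

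The genes with the most TES signal for their length, after Slc35g3, ranged widely in length. Dock3, a guanine nucleotide exchange factor of 340 kb, had a TES CPM of 600, 449 and 577, and its TES held as many reads as 99.3, 42.3 and 154 kb of its body. Col23a1, a transmembrane collagen of 294 kb, had a TES CPM of 694, 584 and 737 and an equivalent length of 92.4, 41.1 and 139 kb. In both genes the gene body CPM was highest and the equivalent length lowest in WT replicate 2. Prss12, a secreted serine protease of 59.7 kb, had an equivalent length of 94.7, 46.0 and 136 kb, and Kif23, a mitotic kinesin of 29.5 kb, had 88.9, 32.0 and 150 kb. These 4 genes were 25.8 to 28-fold above genes of like length, and Slc35g3 was 147-fold above.

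Of these 4, only Kif23 had no other protein-coding or long noncoding RNA gene within 1 kb of its end. Another gene's RefSeq span lies 887 bp from the end of Dock3 (Manf, a secreted factor of the endoplasmic reticulum stress response) and 950 bp from that of Prss12 (Snhg8, a snoRNA host). Phykpl starts 856 bp beyond Col23a1, and the span of Rplp1, an acidic ribosomal stalk protein, lies 2767 bp from Kif23. The other 3 of the 8 named genes highest for their length, beside Slc35g3, were Tex2 (17.0-fold), Tpp1 (12.9-fold) and Slc23a3 (14.6-fold).

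The 8 genes with the least TES signal for their length were Lrrc4, Epo, Atp5o, Gucd1, Manf, Mrpl33, Srpr and B3gnt2. Their log2 differences ran from -5.64 ± 0.32 (SE) in Epo to -4.12 ± 0.24 (SE) in B3gnt2. Epo, the gene of erythropoietin, had 29, 30 and 21 TES counts beside a gene body CPM of 160, 139 and 199. A predicted gene starts 126 bp beyond the end of Epo on the opposite strand and spans that end. Lrrc4, a synaptic adhesion gene that lies inside Snd1, had 73, 33 and 52 TES counts beside a gene body CPM of 292, 275 and 258. Its TES thus matched 0.049, 0.036 and 0.034 kb of its gene body. Manf, next to the end of Dock3, had a TES CPM of 24.6, 40.4 and 26.6 and a gene body CPM of 148, 119 and 163.

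The rest had various roles. Atp5o, a subunit of ATP synthase, had a TES CPM of 56.6, 47.1 and 48.2 and a gene body CPM of 324, 377 and 335. Mrpl33 is a mitochondrial ribosomal protein, Srpr the receptor of the signal recognition particle and B3gnt2 a Golgi glycosyltransferase. The end of Srpr lies inside Fam118b, 38 bp from the end of that gene. WT replicate 3 had the lowest ratio in 7 of the 8 genes, all but Atp5o. It also had the lowest median log2 ratio over all genes, which was 0.35, 0.53 and 0.12 in WT replicates 1, 2 and 3.

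Gene ends with no protein-coding or long noncoding RNA gene within 5 kb numbered 4598 of 10019, a limit chosen after values were seen. Genes of other types, such as small RNAs, were not searched and may lie near these ends. Only 3 of the 50 top-ratio genes with a strand (6%) had such an end, against 43.8% of genes past the signal filter and 30 of 38 lowest-ratio genes (78.9%). Among them most TES signal lay on Fdx1, Per1 and Alas1, given above, and on Rhob, a small GTPase. Rhob had a TES CPM of 882, 623 and 999. Fosl2, an AP-1 factor, had 838, 565 and 666, and H3f3b, which encodes the replacement histone H3.3, had 867, 541 and 1026. WT replicate 2 was the lowest library for each of these 3.

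Of the ends with no such gene within 5 kb, those of Tmem167b, Fhl3, Vmp1 and Jpt2 had the highest ratio for their length. Nearest genes given here are protein-coding or long noncoding RNA genes, since small RNA genes were not searched. Tmem167b, a small secretory-pathway membrane protein, had log2 ratios of 5.02, 5.35 and 4.93, 9.85-fold above genes of like length, and its nearest annotated gene lies 11728 bp away. Fhl3, a LIM-domain protein, had 4.12, 4.17 and 4.17 (8.20-fold above), with the nearest gene at 6250 bp. Vmp1, an autophagy membrane protein of 99.98 kb, had 1.91, 1.32 and 1.62 (8.10-fold above), with the nearest gene at 6714 bp. Jpt2 had 3.56, 3.22 and 4.10 (7.62-fold above). These 4 were picked by the value itself and carry no test.

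Marker genes of the gland and of neighbouring tissues were described mainly by their TES CPM. The tables list the same genes for every library, so presence in them does not check the tissue label of the WT libraries. All 16 listed steroidogenesis genes were in the tables, as were 20 of 24 chromaffin genes of the medulla, 10 of 16 capsule and fibroblast genes, 11 of 15 endothelial genes and 12 of 15 macrophage genes. Of markers of neighbouring tissues, 3 of 10 adipocyte, 3 of 12 kidney tubule, 1 of 10 hepatocyte and 2 of 10 skeletal muscle genes were in the tables. The only hepatocyte gene, Apoa2, had a TES CPM of 54.1, 46.0 and 38.5, beside medians of 49.2, 55.0 and 48.7 over all genes. Its gene body held only 28, 20 and 57 reads. Fabp4, the adipocyte gene with most TES signal, had 140, 58.4 and 225, lowest in WT replicate 2. Summed over the marker lists, TES CPM was 224, 110.0 and 332 for adipocyte, 78.7, 110.0 and 116 for kidney tubule and 117, 144 and 95.6 for skeletal muscle genes. The median gene of these lists had a mean TES CPM of 45.8, 26.6 and 59.4, beside 51.4 over all genes. Summed chromaffin TES CPM was 1699, 1298 and 2482 and summed capsule TES CPM was 604, 1090 and 879, so the 3 glands were high in different lists. The part of cell makeup in the ratios was not tested.

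Among 16 steroidogenesis genes, 14 had a higher share of TES than of gene body counts, 1 had a lower share and 1 did not pass, with a median log2 ratio of 1.06 beside 0.32 over all genes. Over all genes 45.5% were higher and 31.1% lower. Here and in the lists below, genes were named for high TES CPM or as reference genes. TES CPM is the numerator of the ratio, so this choice favours high values, and the tests of named genes are descriptions. Cyp21a1, the steroid 21-hydroxylase, had log2 ratios of 3.02, 3.31 and 2.16 (fitted 2.83 ± 0.22 SE, edgeR adjusted p = 4.9e-08). Cyp11b1, the 11-beta-hydroxylase, had 2.07, 1.53 and 1.09 (fitted 1.56 ± 0.21 SE). Hsd3b1, a 3-beta-hydroxysteroid dehydrogenase, had 2.17, 1.98 and 1.53 (fitted 1.89 ± 0.18 SE). All libraries of these 3 genes lay above 1, the ratio of equal shares. Cyp11a1, which cleaves the cholesterol side chain, had 0.68, 0.92 and 0.49 (fitted 0.69 ± 0.16 SE, edgeR adjusted p = 0.0016), and its adjusted p was 0.0933 when both tables were scaled together. The same held for Fdx1, fitted at 0.70 ± 0.20 (SE, edgeR adjusted p = 0.0053), with 0.138 under joint scaling. The ACTH receptor gene Mc2r had 0.86, 1.24 and 0.53 on few counts, 104, 54 and 104 at the TES.

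Against genes of like length the same list was close to 0, with 2 higher, 1 lower and 13 not called, and a median of -0.07 beside -0.05 over all genes. Over all genes 19.4% were higher and 17.1% lower for their length. Hsd3b1 was higher by 1.15 ± 0.17 (SE, edgeR adjusted p = 0.00012). Cyp11a1 was higher by 0.54 ± 0.16 (SE, edgeR adjusted p = 0.016), and without WT replicate 1 its adjusted p was 0.0926. Star was lower by -0.57 ± 0.18 (SE, edgeR adjusted p = 0.022), with equivalent lengths of 1.60, 1.27 and 1.28 kb.

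Of 21 cholesterol genes, 13 were higher at the TES, 3 lower and 5 not called (median 0.57), beside 45.5% higher and 31.1% lower over all genes. Against length 5 were higher and 3 lower, near the shares over all genes (19.4% and 17.1%). Scarb1, the receptor that takes up cholesterol esters from high-density lipoprotein, had a TES CPM of 866, 260 and 970 and a gene body CPM of 3171, 1138 and 2192. Its log2 ratio of -1.87, -2.12 and -1.18 was fitted at -1.72 ± 0.23 (SE, edgeR adjusted p = 1.3e-05), and it was lower also for its length (-0.93 ± 0.20 SE, adjusted p = 0.0025). Soat1, which esterifies cholesterol, had log2 ratios of -0.25, -0.37 and -0.09 and did not pass the test (adjusted p = 0.18).

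In the medulla list 13 of 20 chromaffin genes were higher at the TES, 5 lower and 2 not called (median 1.06), beside 45.5% higher and 31.1% lower over all genes. For their length 3 were higher and 2 lower, near the shares over all genes (19.4% and 17.1%). Pnmt, which makes adrenaline from noradrenaline, had a TES CPM of 258, 128 and 554 over a gene of 1.56 kb. Its log2 ratios were 3.95, 3.84 and 3.51, and it was higher for its length by 0.87 ± 0.16 (SE, edgeR adjusted p = 0.00069). With gene body counts per kb in place of the trend Pnmt was at -0.49 (adjusted p = 0.0233), and with a straight line of length at 0.39 (adjusted p = 0.0657), so neither its direction nor its call held. Chga, a granule protein, had 1.54, 1.5 and 1.25, and Dbh, which makes noradrenaline, had 1.25, 1.22 and 0.90. Neither passed against length (0.08 ± 0.15 and 0.38 ± 0.17 SE, edgeR adjusted p = 0.70 and 0.091), although Dbh passed with a straight line of length (0.51, adjusted p = 0.0278). TES levels of these 3 genes were highest in WT replicate 3 and lowest in WT replicate 2, while their ratios were lowest in WT replicate 3. The median log2 ratio over all genes was also lowest there, at 0.35, 0.53 and 0.12 in WT replicates 1, 2 and 3.

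Other cell types of the gland were covered by smaller lists. Of 12 macrophage genes 9 were higher and 1 lower (median 2.43), with 4 higher and 1 lower for their length (median 0.60). Over all genes the shares were 45.5% and 31.1% for the ratio, and 19.4% and 17.1% for length. Cd68, a lysosomal glycoprotein, had a TES CPM of 335, 294 and 388 against a gene body CPM of 19.3, 12.1 and 27.2. Mpdu1 starts 1564 bp beyond its end on the same strand. Cd68 was higher for its length by 1.45 ± 0.17 (SE, edgeR adjusted p = 1.4e-05), while Cd74 was not called (0.57 ± 0.22 SE, adjusted p = 0.058). With gene body counts per kb in place of the trend, Cd68 was at 0.26 (adjusted p = 0.24) and C1qa, also in this list, at -0.18 (adjusted p = 0.60). Of 11 endothelial genes 6 were higher and 4 lower (median 0.35), and of 10 capsule genes 5 and 2 (median 0.61), near the shares over all genes (45.5% and 31.1%). Of 10 zona glomerulosa genes 4 were higher and 3 lower (median -0.09), while against length 4 were higher and 0 lower. Wnt4, a ligand made in that zone, was higher for its length by 0.99 ± 0.15 (SE, edgeR adjusted p = 0.00019), and the calcium channel gene Cacna1h by 0.92 ± 0.15 (SE, adjusted p = 0.00025). Both were named for high TES CPM, which favours such a value. Kcnk3, with the most TES CPM of this list (mean 575), was called neither for the ratio nor for its length. Its values were -0.36 ± 0.18 and -0.22 ± 0.17 (SE, edgeR adjusted p = 0.080 and 0.32). Joint scaling lowered ratios by about the endothelial median, so the direction of that median is not settled.

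The cytosolic ribosomal proteins, which form the translation machinery with ribosomal RNA, had the highest median ratio of the lists with at least 10 tested genes. Of 77 cytosolic ribosomal protein genes 74 were higher at the TES, 1 lower and 2 not called, with a median log2 ratio of 2.69 at a median length of 3.14 kb. For their length 25 were higher and 9 lower (median 0.24). Over all genes the shares were 45.5% and 31.1% for the ratio, and 19.4% and 17.1% for length. Rpl13a had log2 ratios of 3.52, 3.62 and 3.45 and an equivalent length of 3.24, 2.89 and 3.71 kb. Pseudogene copies may share reads with single members.

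Of 35 replication-dependent histone genes 28 were higher and 1 lower (median 2.40), beside 45.5% and 31.1% over all genes. Their fitted log2 ratios ran from -1.71 to 10.99. The latter, in a member not named here, was the highest of all tested genes. For their length 8 were higher and 19 lower (median -1.07 beside -0.05 over all genes), against 19.4% and 17.1% over all genes. These genes end at a stem-loop and not at a poly(A) site, and have a median length of 0.504 kb. Hist2h2ac had a TES CPM of 595, 456 and 475 against a gene body CPM of 26.5, 17.0 and 14.7, and was higher for its length by 1.02 ± 0.16 (SE, edgeR adjusted p = 0.00022). With gene body counts per kb in place of the trend the value was -1.22, and with a straight line of length it was 0.0235 (adjusted p = 0.925). Histone copies are near-identical and lie in clusters, so single members are uncertain.

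Immediate early and heat shock genes had more higher than lower calls for the ratio, and more lower than higher calls for their length. Over all genes 45.5% were higher and 31.1% lower for the ratio, and 19.4% and 17.1% for length. Of 21 immediate early genes 17 were higher and 0 lower (median 1.58), and for their length 1 was higher and 7 lower (median -0.14). Zfp36, which destabilises AU-rich messenger RNA, had log2 ratios of 2.44, 2.77 and 2.09 and a length-matched value of -0.10 ± 0.17 (SE), which did not pass. With counts per kb it was -1.16 (adjusted p = 8.03e-05). Of 14 heat shock genes 11 were higher and 2 lower (median 1.41), and for their length 2 were higher and 6 lower (median -0.38). Hspd1 and Hspe1, the mitochondrial chaperonin pair, had length-matched values of 0.78 ± 0.16 (SE, edgeR adjusted p = 0.0019) and 0.11 ± 0.17 (SE, adjusted p = 0.65). With counts per kb Hspe1 was at -0.78 (adjusted p = 0.0016).

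Of 30 factors for 3′ end processing and termination, 15 were higher and 12 lower, beside 45.5% and 31.1% over all genes (median 0.37, a size that joint scaling removes). For their length 5 were higher and 9 lower (median -0.22), beside 19.4% and 17.1% over all genes. Ssu72, a phosphatase of the polymerase tail, and Cpsf3, the nuclease that cleaves the transcript, were higher for their length by 1.44 ± 0.15 and 1.22 ± 0.15 (SE, edgeR adjusted p = 4.9e-06 and 2e-05). Both were named for high TES CPM, which favours such a value, and none of the 9 lower genes is named. Another gene starts 563 bp beyond the end of Ssu72 on the opposite strand. Iah1 starts 1336 bp beyond the end of Cpsf3 on the same strand. Pcf11, a termination factor that binds the polymerase tail, had a length-matched value of 0.23 ± 0.15 (SE, adjusted p = 0.23). Of 12 polymerase subunit genes 9 were higher and 2 lower (median 1.64), and for their length 1 was higher and 3 lower. Polr2a was among the lower ones in both tests.

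Of 17 housekeeping genes 14 were higher and 1 lower (median 2.11), with 4 higher and 6 lower for their length (median -0.06). Over all genes the shares were 45.5% and 31.1% for the ratio, and 19.4% and 17.1% for length. Actb was higher for its length by 0.58 ± 0.16 (SE, edgeR adjusted p = 0.01) and Actg1 by 0.61 ± 0.15 (SE, adjusted p = 0.0068), and without WT replicate 1 these were 0.0712 and 0.0907. With counts per kb both were on the other side, at -0.0443 and -0.36, and with a straight line of length Actg1 did not pass (adjusted p = 0.0953). All 10 adhesion and synapse genes with long introns were lower (median -5.55), against 2 higher and 2 lower for their length. Dlg2, a synaptic scaffold of 1973 kb, had log2 ratios of -4.29, -4.79 and -4.23 and was higher for its length by 1.56 ± 0.19 (SE, edgeR adjusted p = 2e-05). Magi2, also a synaptic scaffold, was higher by 1.29 ± 0.20 (SE, adjusted p = 0.00015). Both calls were lost with a straight line of length, at 0.33 (adjusted p = 0.177) for Dlg2 and 0.18 (adjusted p = 0.494) for Magi2.

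**Figure D5:**
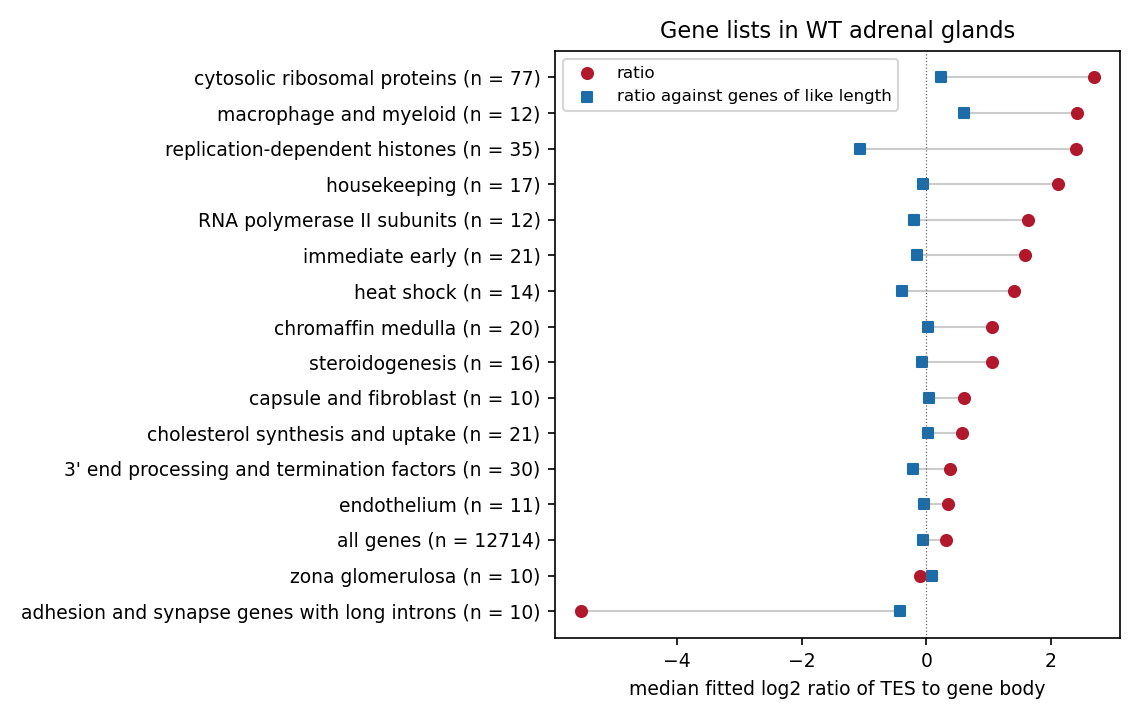
Median fitted log2 ratio of TES to gene body in each list of at least 10 tested genes (circles) and the median against genes of like length (squares); n is the number of genes tested for the ratio, and the dotted line marks a log2 ratio of 0. Ribosomal protein genes have the highest median ratio (2.69) and long-intron genes the lowest (-5.55), while the length-matched medians lie between -1.07 and 0.60.

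Ratios differed little between the 3 glands for most genes. Among genes past the signal filter the median range of the log2 ratio over the libraries was 0.49, 90.8% had a range under 1, and 35 genes had a range of 2 or more. The widest was that of Acvr1, a receptor of bone morphogenetic proteins, at -4.60, -3.35 and -6.58 on 24, 28 and 7 TES counts. Nr4a2, an inducible nuclear receptor, had 0.73, 0.94 and -2.07, with 630, 242 and 34 TES counts and 4308, 1718 and 1357 gene body counts. In both genes WT replicate 3 was low, and its median log2 ratio over all genes was also the lowest (0.35, 0.53 and 0.12). Fgfr2, a fibroblast growth factor receptor, went the other way, with -4.55, -4.85 and -2.80 on 318, 138 and 1339 TES counts. These 3 genes were picked after their values were seen.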

How the data were processed

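The authors deposited whole-number read counts per gene over the TES and the gene body, with 1 column per library and no pooling. Per the submitters' processing notes, the builds were GRCm38 and mm10. These notes name edgeR, limma, HOMER, MACS2, Picard, BWA, Trimmomatic and bcl2fastq 2.20 but not what each was used for. How reads were counted, the window widths, the gene models and any input library were not described in the labels or headers.

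Gm10800 was dropped and CPM was computed within each table from the remaining total. The test of the ratio used edgeR 4.0.16 (R 4.3.3, quasi-likelihood F test of TES against gene body counts, library as block, filterByExpr defaults, no scaling factor) and adjusted by the Benjamini-Hochberg method. The standard error is the log2 value over the square root of F. For the comparison with genes of like length, a loess trend (span 0.3, degree 1) of the mean log2 ratio on log2 length entered as an offset. The script was tested on simulated data.

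Symbols were matched to RefSeq GRCm38.p6, 12384 by symbol and 136 by synonym, and 10019 genes had a strand in the RefSeq promoter table. Coordinates are 1-based. The end of a gene is the far end of its RefSeq span, and the start sites of neighbours are those in the promoter table. Neighbours were sought among protein-coding and long noncoding RNA genes only. A neighbour absent from the promoter table, and so without a strand, entered only the span distances.

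Named genes were those with the highest minimum TES CPM (12), the highest minimum and lowest maximum ratio (10 each), the same for the ratio against length (8 each), up to 3 members of each list by TES CPM, and reference genes. Of these, 3 genes are not reported here. Predicted genes and small RNAs were counted and not named, apart from Gm10801, Gm10718 and Gm10722, which were named after their share had been seen. The members, lists and tests were chosen with earlier results of these data known. The TES and gene body columns of a library come from the same animal. Their deviations from the 3-library means had correlations across genes of 0.41, 0.62 and 0.58, and the library was the block of the main fits for that reason. The replicates are separate mouse numbers in the labels. Alternatives were TMM and RLE scaling, TMM over both tables, no filter and a stricter filter, DESeq2 1.42.0, limma 3.58.1 and no replicate block. Others were leaving out each library, another trend, other rank depths and genes of at least 5 kb. A last one kept genes with no stranded gene's start or end within 1 kb and no stranded gene over their end.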

Additional observations from a re-analysis of the deposited data

How the results depend on the processing

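The number of genes called for the ratio was 9733, and without each library in turn 8301 to 9878. It was 5737 among 7574 genes (75.7%) with no stranded gene's start or end within 1 kb and no stranded gene over their end. Fewer genes were tested there. Pigu and Dock3, with a neighbour's span 170 and 887 bp away, were still among them, so this set is not free of close neighbours. Against genes of like length 4573 were called, without each library in turn 2700 to 4951, and 2338 of the same 7574 genes. DESeq2 called 9453 and 4016 and limma 9738 and 4440 for the 2 comparisons. With ranks of 50 in place of 100, the genes in every library numbered 25 for TES CPM, 30 for the highest and 26 for the lowest ratio, and with ranks of 200 they numbered 132, 142 and 128.

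Without the replicate block, which drops the pairing of the 2 regions of a library, 8615 genes were called for the ratio and 2628 against length. The calls for the ratio of Star (adjusted p = 0.0518), Cyp11a1 (0.0753) and Fdx1 (0.219) were then lost.

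Over the 98 named genes and 13 settings, 1164 values of the ratio kept their direction and side of the threshold, 19 lost the call, 11 gained it and 1 reversed (Eng, -0.0109 when both tables were scaled together by TMM). Against length, over 14 settings, these numbers were 1191, 57, 33 and 12. With a straight line of length Csmd1 became -1.08. With gene body counts per kb, which assumes no trend of the equivalent length, Actb became -0.0443, Actg1 -0.36, C1qa -0.18, Hist1h3a -0.37, Hist2h2ac -1.22, Hspe1 -0.78, Mgp -0.24, Pnmt -0.49, Polr2l -0.50, Rpl12 -0.16 and Sox18 -0.51. The straight line also put Macrod2 at -1.71, Ctnna3 at -1.54, Sgcz at -1.74, Prkg1 at -1.59, Gpc5 at -1.34 and Nrg3 at -1.35, and ended the calls of Dlg2 (0.33) and Magi2 (0.18). The 5 to 46 TES counts per library of the 9 named genes with the lowest ratios limit their precision.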
